A study of Homo sapiens with 31 samples.

Results

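The nuclear-encoded subunits of the respiratory chain and the ATP synthase were followed across 31 mRNA libraries of cell lines that the study used as ovarian cancer models. The paper acknowledges controversy over its main cell line models, the origin of C13* included. Members were chosen by gene symbol alone (names that begin with NDUFA, NDUFB, NDUFC, NDUFS or NDUFV and a number, SDHA to SDHD, UQCR, CYC1, COX4 to COX8, and ATP5), which gave 87 of the 19221 genes in the table. They held 36 subunits of complex I, 4 of complex II, 9 of complex III, 18 of complex IV and its isoforms, and 15 of complex V. The other 5 (ATP5S, ATP5SL, ATP5L2, ATP5J2-PTCD1 and UQCRHL) carry such a name without being a subunit. The table had no gene of the mitochondrial genome, so the subunits encoded there were not analysed here.

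C13* shCON had 7 libraries, and the other groups, named C13* shCEBPB, A2780 and A2780 OlaR in the labels, had 8 apiece. C13* is a cisplatin-resistant line that received, by lentivirus, a control shRNA or an shRNA against CEBPB, the gene of the transcription factor C/EBPβ. A2780 is the untreated parent line, and A2780 OlaR is a single strain raised from it by prolonged culture in rising olaparib, an inhibitor of PARP, and labelled as treated with olaparib. All lines were kept in the same serum-containing medium. The study asked which genes changed after C/EBPβ knockdown and which changed with olaparib resistance. The methods of the study call the replicates biological, and p-values measure the spread between these libraries.

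Complex I takes electrons from NADH and complex II takes them from succinate, which makes complex II a step of the TCA cycle as well. Ubiquinone carries the electrons to complex III and cytochrome c carries them to complex IV, which reduces oxygen, while complexes I, III and IV pump protons that drive the ATP synthase (complex V). Most subunits are encoded in the nucleus, and several of complex IV exist as pairs of a widely used isoform and an isoform of heart, skeletal muscle, lung or testis. In the older names used in the table, ATP5A1, ATP5B and ATP5C1 are the present ATP5F1A, ATP5F1B and ATP5F1C, and ATP5G1 to ATP5G3 are ATP5MC1 to ATP5MC3.

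Before the results, the groups were compared with their labels. FPKM scale the fragments of a gene by its length and by the size of the library. CEBPB had 75.2 to 101 FPKM in shCON (median 85.4), and the knockdown libraries had 30.2 to 58.7 (median 49.5), which did not overlap (log2 fold change -0.87, SE 0.11, adjusted p = 1.42e-06). In A2780 it had 85.6 to 111 FPKM and in OlaR 97.1 to 127, which overlap (change 0.16, adjusted p = 0.0202). Over 13125 genes, the mean profile of the libraries labelled A2780 OlaR had a Pearson r of 0.993 with C13* shCON and of 0.717 with A2780, the parent in its label. Only 73 genes (0.556%) differed at least 2-fold between A2780 OlaR and C13* shCON, against 34.6% between A2780 OlaR and A2780 and 27.7% between C13* shCON and C13* shCEBPB. Within groups, r between libraries was 0.981 to 0.998. The sum of squamous markers separated the groups in the same way. The summed FPKM of 12 squamous epithelial genes was 3480 to 4096 in shCON and 3330 to 4255 in OlaR, but 379 to 671 in shCEBPB and 87.1 to 94.8 in A2780. KRT5, a keratin of basal cells, had medians of 1573 and 1870 in shCON and OlaR, 0.00988 in shCEBPB and 0 in every A2780 library. Not all of the 12 fell so far in shCEBPB. In shCON and shCEBPB, DSP had medians of 53.2 and 50.5, PERP 76 and 67.1, and KRT17 611 and 262. The sum of 10 mesenchymal genes was 57.4 to 64.4, 49 to 53.1, 375 to 403 and 918 to 966 in shCON, OlaR, shCEBPB and A2780. VIM carried most of it in the latter pair (medians 342 and 808), and not all of the list followed: SNAI2 had medians of 15.8, 13.4, 5.7 and 0.597 in the same order, and FN1 7.85, 7.71, 7 and 0.537. Ovarian and Müllerian markers were low. PAX8 had medians of 6.2 in shCON, 5.94 in OlaR, 0.529 in shCEBPB and 0.59 in A2780. WT1 had 0.823, 0.597, 0.0086 and 0.0265 in the same order. SOX17 and MUC16 were instead highest in shCEBPB. Their medians in that order were 0, 0, 1.99 and 0 for SOX17, and 0.112, 0.0489, 0.592 and 0 for MUC16. EMX2 had a median of 0.0238 at most. The sum of the 5 such markers was 7.82 FPKM at most. The sums of the 6 muscle and heart genes were at most 13 and those of the 4 testis genes at most 0.611. Of 4 genes of blood and vessels, PTPRC (CD45) was at 75.7 to 103 in A2780 and at most 0.0144 elsewhere. These values go against the label that derives A2780 OlaR from A2780. Whether libraries or lines were exchanged was not tested, so "after knockdown" and "in OlaR" below name the labelled groups only. The knockdown and the resistance cannot be told apart from these differences over the whole profile. In libraries of whole cultures, fewer cells of a type and less RNA per cell cannot be told apart either.

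The respiratory chain genes were among the abundant genes of all 4 groups. Together they made up 2.3% ± 0.0706 of the summed FPKM in shCON (SD, n = 7), 2.63% ± 0.103 in shCEBPB (n = 8), 2.34% ± 0.0354 in A2780 (n = 8) and 2.33% ± 0.0931 in OlaR (n = 8). The shCEBPB libraries ranged from 2.46% to 2.75% and overlapped only OlaR, whose highest library was at 2.47%. Of the 87 members, 77 had a mean of at least 10 FPKM in every group and 79 of at least 1. ATP5B, the catalytic subunit of the ATP synthase, had 765 ± 21.5 FPKM in shCEBPB, the highest mean of a member in any group, and 464 ± 11.7 in shCON, 560 ± 15.3 in A2780 and 435 ± 12.4 in OlaR. COX7C, a small subunit of complex IV, had 662 ± 27.4 FPKM in shCEBPB, 627 ± 34.5 in shCON and 621 ± 46.8 in OlaR, which overlap, and 495 ± 36.7 in A2780. Its A2780 libraries, at 434 to 565, overlapped those of shCON (560 to 654) only. In shCON and OlaR COX7C was above ATP5B. These levels are per length of gene. They rest on short genes (median length of the canonical transcript 799 bases, against 2952 over all genes matched). RefSeq also lists 200 pseudogenes by name for 48 of the members, and 46 members share exonic bases with another gene, so reads may be split between copies or neighbours.

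**Figure D1:**
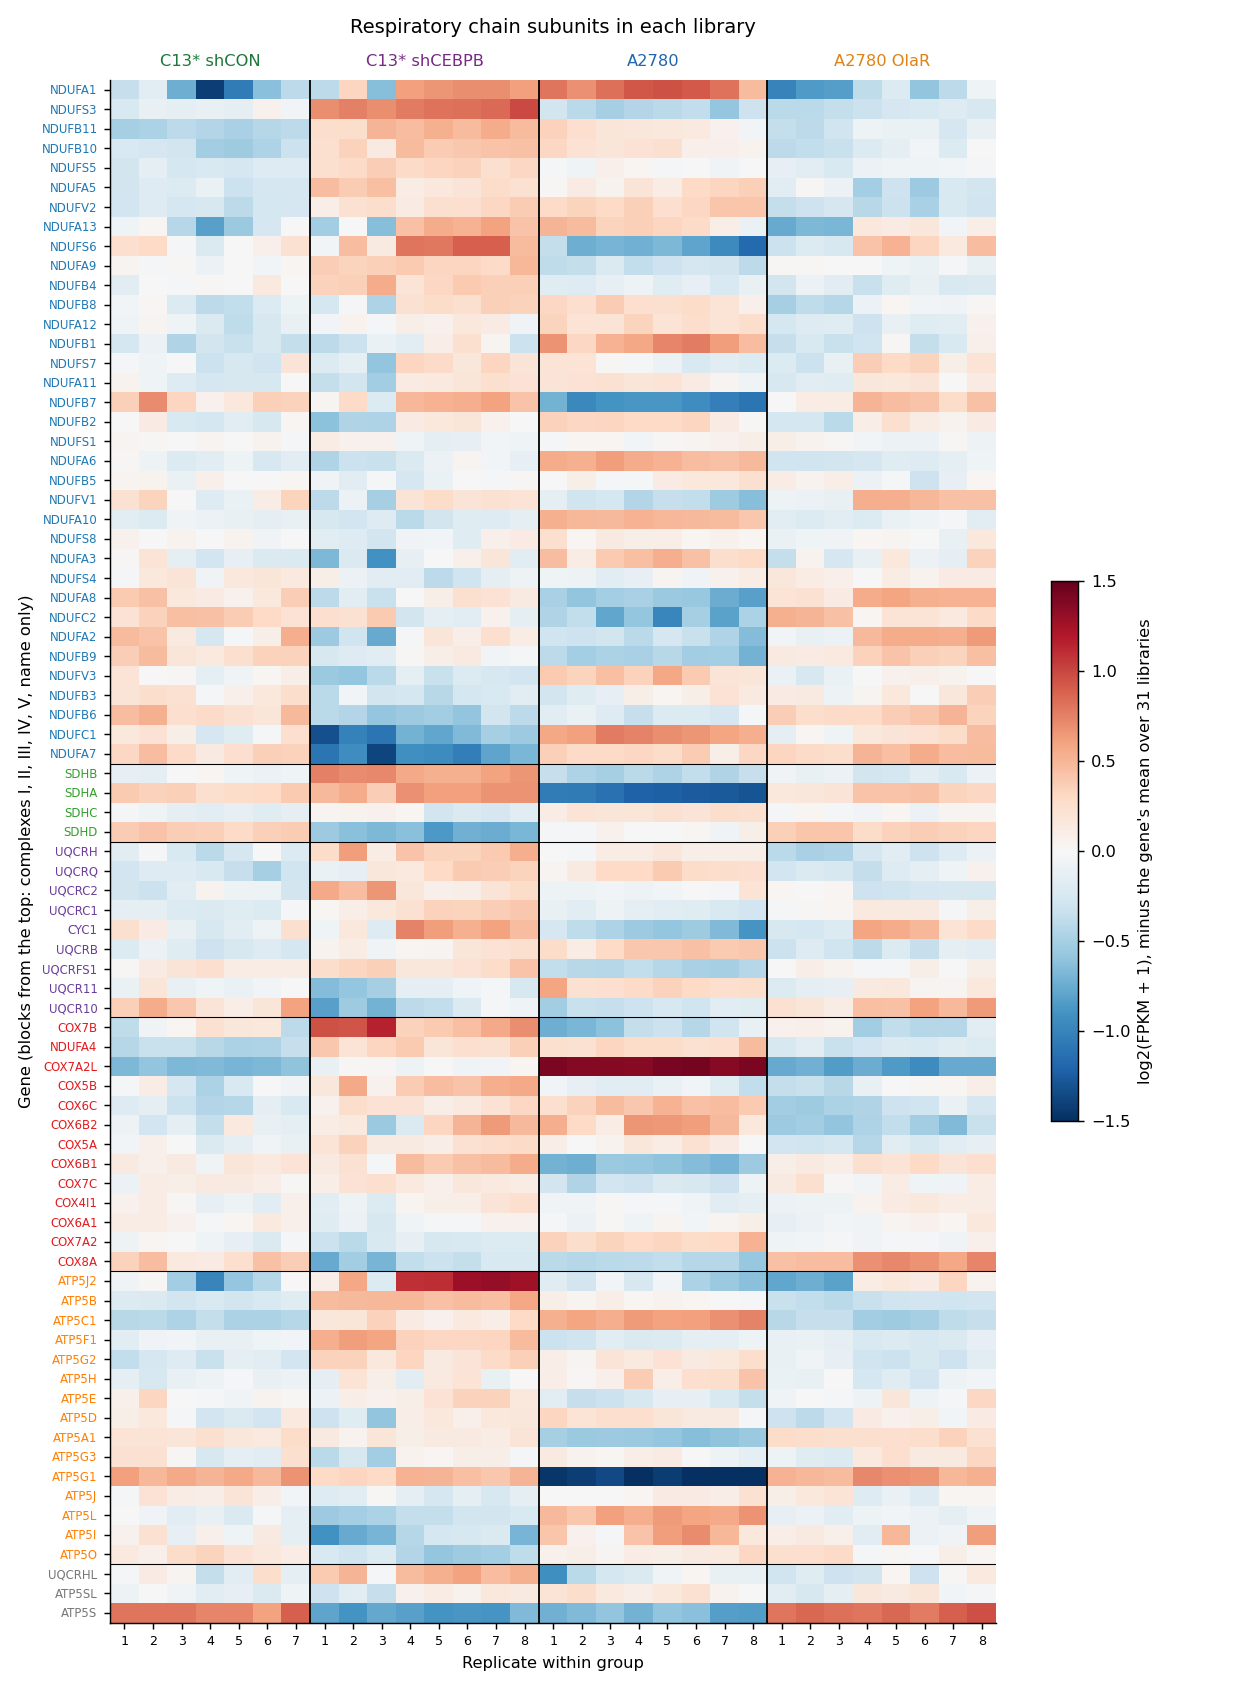
Level of 79 of the 80 members that passed the filter on low values (rows, in blocks of complexes I, II, III, IV, V and name only, ordered in each by the shCEBPB minus shCON difference) in each of 31 libraries (columns), as log2(FPKM + 1) minus the mean of the gene over all libraries, with the colour scale ending at -1.5 and 1.5. The columns of C13* shCON and A2780 OlaR look alike, COX7A2L stands out as high and ATP5G1 and SDHA as low in A2780, and within shCEBPB and OlaR the first 3 libraries differ from the others in rows such as ATP5J2 and NDUFA13.

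The promoters of members the results turn on are given here from RefSeq (GRCh38.p14), as the 250 bases before the start of the gene, 5′ to 3′ on the strand of the gene. A promoter was found for 67 of the 87 members. SDHD and ATP5C1 are shown because they hold the letters of the nuclear respiratory factor 1 motif and differed between groups, and ATP5G1 and ATP5G2 because they encode the same mature protein and differed in opposite directions. Capitals mark the palindrome of NRF1 (GCGCA followed by its reverse complement) in SDHD and ATP5C1, CCGGAAGT (GABPA, an ETS factor, here on the other strand) in SDHD, and TGACGTCA (the cAMP response element) in ATP5G1.
SDHD (chr11:112086623-112086872, plus strand): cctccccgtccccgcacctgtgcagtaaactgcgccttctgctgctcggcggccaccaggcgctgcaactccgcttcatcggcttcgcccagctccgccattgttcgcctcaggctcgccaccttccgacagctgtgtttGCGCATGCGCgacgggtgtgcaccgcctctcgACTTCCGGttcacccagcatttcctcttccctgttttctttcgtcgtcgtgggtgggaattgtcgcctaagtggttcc
ATP5C1 (chr10:7787927-7788176, plus strand): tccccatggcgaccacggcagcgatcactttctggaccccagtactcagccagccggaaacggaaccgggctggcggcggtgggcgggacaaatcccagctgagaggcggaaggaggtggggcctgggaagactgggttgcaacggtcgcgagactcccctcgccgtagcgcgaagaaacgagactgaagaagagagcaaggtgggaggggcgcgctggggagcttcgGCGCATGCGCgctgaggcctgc
ATP5G1 (chr17:48892537-48892786, plus strand): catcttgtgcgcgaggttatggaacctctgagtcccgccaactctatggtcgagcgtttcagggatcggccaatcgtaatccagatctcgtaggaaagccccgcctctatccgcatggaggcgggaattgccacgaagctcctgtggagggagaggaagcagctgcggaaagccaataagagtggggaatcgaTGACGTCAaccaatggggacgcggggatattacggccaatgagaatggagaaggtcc
ATP5G2 (chr12:53676084-53676333, minus strand): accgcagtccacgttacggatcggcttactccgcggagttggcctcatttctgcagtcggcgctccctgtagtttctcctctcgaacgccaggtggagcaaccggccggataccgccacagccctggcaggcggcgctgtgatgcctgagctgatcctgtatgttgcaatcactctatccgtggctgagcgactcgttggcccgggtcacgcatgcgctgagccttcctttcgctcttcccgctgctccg

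Motifs were searched on both strands in 300 bases, 250 before and 50 after the start, in the 67 members and in all 15056 promoters. The NRF1 palindrome was in 4 members (ATP5C1, NDUFA8, NDUFB4 and SDHD, 5.97%) and in 1.78% of all promoters. CCGGAAGT was in 11 members (16.4%, against 6.47%) and AAGATGGCG, the motif of YY1, in 9 (13.4%, against 3.03%). TCAAGGTCA, bound by ESRRA, was in SDHD alone (1.49%, against 0.179%), within the first 50 bases after its start. The C/EBP palindrome TTGCGCAA was in none of the 67 and in 0.199% of all promoters, and its looser form TTGCNNAA, which contains it, was in 5 (7.46%, against 8.02%). TGACGTCA was in 5 (7.46%, against 2.79%) and TATAAA in 6 (8.96%, against 9.25%). SDHD thus held the letters of 3 factors known for respiratory chain genes. These are counts of letters in a window, with no test.

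In C13*, the subunits changed in both directions after C/EBPβ knockdown, and by less than most genes. Of 80 members tested, 37 rose and 23 fell (60 called, 75%). Of all 12006 genes tested, 84.7% were called, 38.9% higher and 45.7% lower. For 37 members the shCON and shCEBPB libraries had no overlap, 24 higher and 13 lower, against 66.0% of all genes, and 5 members (6.25%) were called with a change of at least 2-fold, against 29.5%. The median log2 fold change of the members was 0.12, and that of all genes was -0.07. The median turned with the library number: it was -0.06 in libraries 1 to 3 (28 higher and 32 lower) and 0.27 in libraries 4 to 8 (46 higher and 17 lower).

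The calls by complex are to be read beside the 84.7% of all genes called (38.9% higher and 45.7% lower). The 9 subunits of complex III were all called, 7 higher and 2 lower (median 0.36). Complex IV had 7 higher and 3 lower of 13 tested (median 0.28). Complex I had 14 higher and 10 lower of 36 (median -0.01), and all 3 calls among its 7 core subunits were rises. Complex II had 2 higher and 1 lower of 4 (median 0.14), and complex V had 6 higher and 6 lower of 15 (median 0.01). Subunits of the same complex therefore differed in direction in each of the 5 complexes.

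In A2780 OlaR against A2780, members again changed in both directions. Of 80 tested, 28 rose and 38 fell (66 called, 82.5%), and of all 12458 genes tested 89.8% were called, 40.1% higher and 49.7% lower. The libraries did not overlap for 50 members, 22 higher and 28 lower, against 74.1% of all genes, and 10 members (12.5%) were called with a change of at least 2-fold, against 35.7%. The median was -0.08 in the members and -0.12 in all genes, and it was -0.14 in libraries 1 to 3 (30 higher and 41 lower) and -0.07 in libraries 4 to 8 (30 higher and 35 lower). The 9 subunits of complex III were again all called, 4 higher and 5 lower, where 89.8% of all genes were called. Complex I had 12 higher and 19 lower of 36, complex II 3 higher and 1 lower of 4, complex IV 5 higher and 6 lower of 13, and complex V 3 higher and 6 lower of 15.

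**Figure D2:**
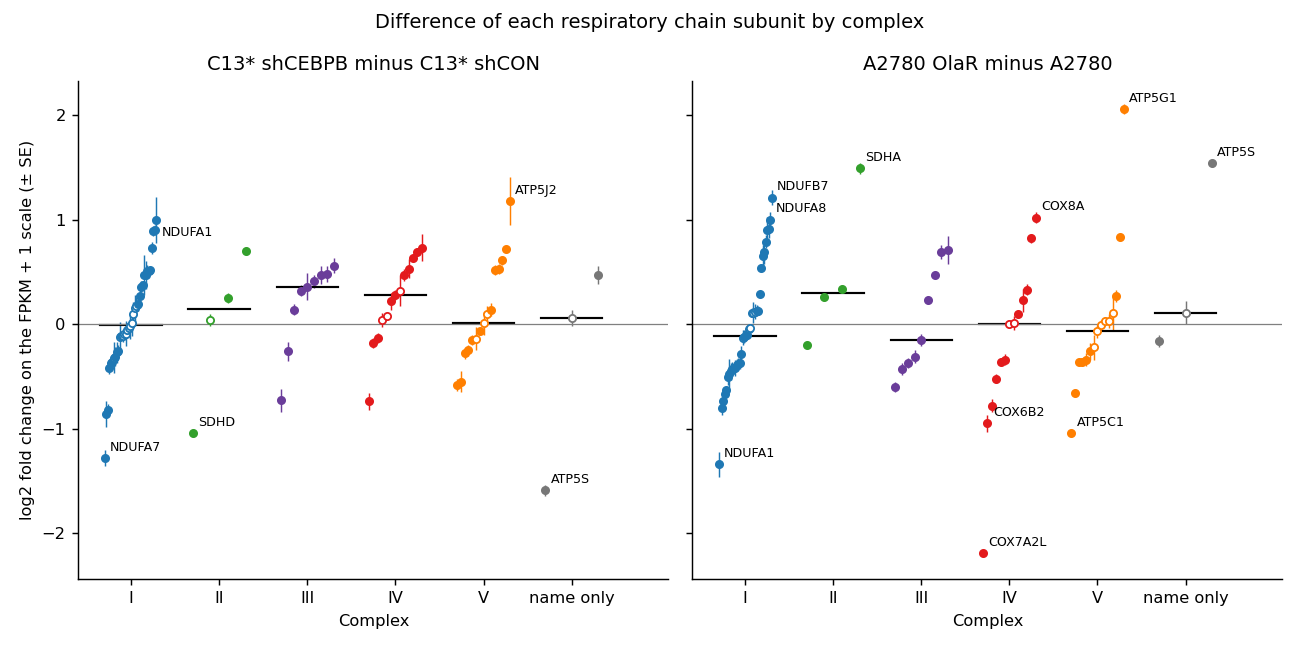
Log2 fold change on the FPKM + 1 scale with its SE for 79 of the 80 members tested, by complex, in C13* shCEBPB minus C13* shCON (left) and A2780 OlaR minus A2780 (right); filled points passed an adjusted p under 0.05, open points did not, and black lines are medians over all members tested. Points lie on both sides of 0 in every complex, and the farthest are ATP5S (-1.59) on the left and COX7A2L (-2.19) and ATP5G1 (2.06) on the right.

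The groups were also set side by side across the lines, in a fit of all 4 groups over 12967 genes. Between OlaR and shCON 14 of the 80 members were called (7 higher and 7 lower in OlaR, against 37.7% of all genes), and the differences ran from -0.36 (COX6B2) to 0.29 (COX8A). Between shCEBPB and A2780 65 members were called (32 higher and 33 lower, against 88.0%), from -1.48 (NDUFC1) to 1.89 (ATP5G1). In 12 members every A2780 library lay beyond every other library by a fold of at least 1.5 in the means (31.7% of all genes). ATP5A1, ATP5G1, COX6B1, NDUFB7, NDUFC2, NDUFS6 and SDHA were low there, and ATP5L, COX7A2L, NDUFA10, NDUFA6 and NDUFB1 were high. NDUFC2 was scarce in every group, at 1.21 to 2.36 FPKM in A2780 and 2.6 to 5.28 in the other groups. It shares 428 exonic bases with NDUFC2-KCTD14 on its strand. The shCEBPB libraries stood apart in 6 members (22.2% of all genes), with COX7B, NDUFS3 and SDHB high and NDUFA7, NDUFC1 and SDHD low. The shCON and OlaR libraries together stood apart in 6 members (19.2% of all genes), COX7A2L again among them, with ATP5S, COX8A and UQCR10 high and ATP5C1 and COX7A2L among those low. No member set shCON alone or OlaR alone apart, where only 0.817% and 0.748% of all genes did.

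Among the core subunits of complex I, some passed the test and others did not. NDUFS1, an iron-sulphur subunit of the electron input module, was at 42 to 44.3 FPKM in shCON, 38.7 to 46.2 in shCEBPB, 41.6 to 45.5 in A2780 and 40.1 to 45.4 in OlaR, which overlap, and it passed the test in neither comparison (adjusted p = 0.364 and 0.247). NDUFS3, a subunit of the ubiquinone module, had 56.2 to 69.1 FPKM in shCON libraries (median 60.9) against 108 to 132 after knockdown (median 116; change 0.90, SE 0.05, adjusted p = 6.65e-12). Its A2780 and OlaR libraries overlapped at 44 to 54.3 and 49.7 to 57.8 (change 0.11, adjusted p = 0.0253), and the small rise was not called in libraries 1 to 3 (0.01, adjusted p = 0.9). NDUFS3 shares 721 exonic bases with PTPMT1 on the same strand. NDUFV1, which binds NADH, had no call after knockdown (-0.09, adjusted p = 0.508) and rose in OlaR (0.65, adjusted p = 1.44e-05), by 0.14 in libraries 1 to 3 and by 0.96 in libraries 4 to 8.

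Among the 29 accessory subunits of complex I the median size of the log2 fold change was 0.36 after knockdown and 0.43 in OlaR, beside 0.15 and 0.11 in the 7 core subunits. NDUFA7 (minus strand of chr19:8308768-8321375, hg38) had 83.8 to 106 FPKM in shCON libraries (median 95.3) against 28.9 to 47.2 after knockdown (median 39.4), a change of -1.28 on the log2 scale (SE 0.08, adjusted p = 4.89e-11). A2780 and OlaR, at 81.4 to 100 and 91.8 to 113, overlapped (change 0.13, adjusted p = 0.0194), and the direction turned in libraries 1 to 3 (-0.03, adjusted p = 0.445). It shares 452 exonic bases with another gene on its strand. NDUFC1 fell after knockdown (-0.86, adjusted p = 2.03e-06) and fell by 0.51 in OlaR (adjusted p = 1.16e-06). NDUFB6 fell by 0.82 after knockdown (adjusted p = 1.07e-09) and rose by 0.54 in OlaR (adjusted p = 5.93e-10). NDUFB11 and NDUFB10 rose after knockdown (0.89 and 0.73) and fell in OlaR (-0.37 and -0.38), with adjusted p of 5.94e-12, 4.02e-09, 6.95e-06 and 5.53e-06. Neither gene's libraries overlapped in either comparison. NDUFB7 was at 47.4 to 62.4 FPKM in A2780 (median 54.1) and 103 to 146 in OlaR (median 131; change 1.21, SE 0.07, adjusted p = 5.30e-12), while shCON and shCEBPB overlapped at 107 to 168 and 89 to 157. NDUFA1, which is X-linked, was at 94.5 to 133 FPKM in A2780 (median 120) and 33.5 to 65 in OlaR (median 48.1; change -1.34, SE 0.12, adjusted p = 1.79e-09).

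Complex II has only 4 subunits, and each followed the groups in its own way. SDHA (plus strand of chr5:218303-257082, hg38), the flavoprotein that oxidises succinate, was at 59.6 to 70.7 FPKM in A2780 (median 62.8) and 165 to 200 in OlaR (median 185), a change of 1.49 (SE 0.05, adjusted p = 4.40e-16). It was at 174 to 193 in shCON and 191 to 237 in shCEBPB, which overlap (change 0.25, adjusted p = 0.000108), and the rise after knockdown was not called in libraries 1 to 3 alone (0.10, adjusted p = 0.14). SDHB, the iron-sulphur subunit, was highest in shCEBPB, at 106 to 124 FPKM (median 114) against 66.5 to 74.9 with the control shRNA (median 69.8; change 0.70, SE 0.04, adjusted p = 4.75e-11), and was at 51.5 to 57.4 in A2780 and 60.1 to 70.8 in OlaR (change 0.26, adjusted p = 5.61e-06). The membrane anchors differed. SDHD (plus strand of chr11:112086824-112120016, hg38), with the NRF1 palindrome in its promoter, had 87.9 to 96.8 FPKM in shCON libraries (median 93.1) against 39.1 to 49.2 after knockdown (median 44.7), a change of -1.04 (SE 0.04, adjusted p = 1.12e-13), and at 69.3 to 76.9 in A2780 (median 72.2) and 87.4 to 96.7 in OlaR (median 92.2; change 0.34, adjusted p = 1.83e-09). SDHC was at 36.8 to 53.6 FPKM over all libraries, with no call after knockdown (0.04, adjusted p = 0.578) and a small fall in OlaR (-0.20, adjusted p = 2.27e-06). SDHA shares 1887 of its 8703 exonic bases with another gene on its strand, and SDHD 319 of 2790. RefSeq lists 4, 1, 5 and 7 pseudogenes by name for SDHA, SDHB, SDHC and SDHD, so reads may be split.

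The balance within complex II was given by ratios in each library. SDHA over SDHB was 2.65 ± 0.189 in shCON, 1.95 ± 0.236 in shCEBPB, 1.18 ± 0.103 in A2780 and 2.82 ± 0.386 in OlaR. SDHD over SDHC was 2.27 ± 0.088 in shCON, 1.06 ± 0.0669 in shCEBPB, 1.41 ± 0.0643 in A2780 and 2.08 ± 0.0965 in OlaR. In each comparison, both ratios gave an exact permutation p of 0.000155 (two-sided), the smallest the design allows, and 0.000248 after adjustment over the 24 tests of 12 ratios and sums. The order of the groups was thus the same in the ratio of the anchors as in SDHD itself, while SDHC stayed within a narrow range.

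In complex III, the core proteins UQCRC1 and UQCRC2 rose after knockdown (0.41 and 0.47, adjusted p = 3.06e-06 and 9.07e-05). UQCRC1 rose in OlaR as well (0.23, adjusted p = 7.01e-06). UQCRC2 fell there by 0.15 (adjusted p = 0.0224), with overlap, and the direction turned in libraries 1 to 3 (0.08) and with a correction for length and GC content (0.08). UQCRH, the hinge protein, was at 215 to 285 FPKM in shCON and 309 to 441 in shCEBPB (change 0.56, adjusted p = 1.14e-06), and it fell in OlaR (-0.37, adjusted p = 1.78e-06). Its near copy UQCRHL, at 13.2 to 39.6 FPKM over all libraries, rose after knockdown (0.47, adjusted p = 0.000162) and had no call in OlaR (0.11, adjusted p = 0.358). Reads of UQCRH and UQCRHL may be split between them. The Rieske protein UQCRFS1 was at 61.2 to 66.9 FPKM in A2780 and 85.1 to 93.2 in OlaR (change 0.47, adjusted p = 1.47e-11), and its rise after knockdown was small (0.14, adjusted p = 0.00879) and turned under quantile normalization (-0.02). CYC1, cytochrome c1, rose in both comparisons (0.36 and 0.71, adjusted p = 0.0196 and 3.98e-05), but the rise after knockdown turned to -0.12 in libraries 1 to 3 and that in OlaR was 0.13 there.

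In complex IV, COX8A fell after knockdown and rose in OlaR, and NDUFA4, COX6C and COX5A went the other way in each. COX8A had 433 to 548 FPKM in shCON libraries (median 503) against 234 to 338 after knockdown (median 308; change -0.74, SE 0.08, adjusted p = 1.76e-07), and at 266 to 307 in A2780 (median 297) and 537 to 658 in OlaR (median 615; change 1.02, SE 0.05, adjusted p = 6.94e-14). NDUFA4, named for complex I and since placed in complex IV, rose after knockdown (0.69, adjusted p = 5.76e-11) and fell in OlaR (-0.52, adjusted p = 9.52e-11). COX6C likewise rose (0.47, adjusted p = 4.09e-07) and fell (-0.78, adjusted p = 1.61e-10). COX5A rose by 0.28 after knockdown and fell by 0.34 in OlaR (adjusted p = 4.22e-05 and 6.91e-07). COX5B rose after knockdown (0.53, adjusted p = 3.24e-05), with overlap, and gave 0.01 in OlaR (adjusted p = 0.867). COX4I1, the ubiquitous subunit 4, was at 306 to 419 FPKM in all libraries (0.04 and 0.10, adjusted p = 0.554 and 0.0329), and the small rise in OlaR was lost or turned in 6 of the 9 alternatives.

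COX7A2L (minus strand of chr2:42333546-42425088, hg38), a relative of subunit 7A that joins complexes III and IV in supercomplexes, had the largest difference of any member. It was at 196 to 206 FPKM in A2780 (median 201) and 38.9 to 45.6 in OlaR (median 44.3), a log2 fold change of -2.19 (SE 0.03, adjusted p = 6.40e-22), and its shCON libraries had 46.4 to 49.8 (median 47.2) against 70.3 to 77 after knockdown (median 74.7; change 0.63, SE 0.03, adjusted p = 5.32e-12). The groups did not overlap. COX7A2, the ubiquitous subunit 7A, moved little (-0.18 after knockdown with overlap, adjusted p = 0.00183, and -0.36 in OlaR, adjusted p = 1.13e-08). COX7A2L over COX7A2 was therefore 0.35 ± 0.0168 in shCON, 0.618 ± 0.047 in shCEBPB, 1.11 ± 0.0596 in A2780 and 0.307 ± 0.0196 in OlaR (exact permutation p = 0.000155 in each comparison, adjusted p = 0.000248).

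The tissue isoforms of complex IV were near 0 beside their ubiquitous partners in all groups. COX4I2 (lung and hypoxia) was at most 0.504 FPKM in any library and 0.029% or less of subunit 4 in the means. COX6A2 (heart and skeletal muscle) was at most 0.387 FPKM and was listed at 0 in every OlaR library, while COX6A1 was at 250 to 329. COX7A1 (heart and skeletal muscle) was at most 1.12 FPKM, with group means from 0.138% to 0.411% of COX7A1 and COX7A2 together. COX7B2 (testis) was listed at 0 in all libraries, and COX8C (testis) was at most 0.722, in A2780. None of these 5 passed the filter for the test across genes. The shares of COX4I2, COX6A2 and COX7A1 in each library were compared by exact permutation, and 1 of the 6 comparisons passed: the COX4I2 share was 0.0223% ± 0.0209 in shCON and 0.00252% ± 0.00713 in shCEBPB (p = 0.0182, adjusted p = 0.0257), both near 0. COX6B2 (testis) alone passed the filter. It was at 1.31 to 2.37 FPKM in A2780 (median 2.06) and 0.348 to 0.693 in OlaR (median 0.485), a change of -0.95 on the FPKM + 1 scale (SE 0.08, adjusted p = 1.12e-09), and it was not called after knockdown (0.32, adjusted p = 0.0511). COX6B2 shares 1083 of its 3720 exonic bases with another gene on its strand, so these low levels may hold reads of that gene. Its share of subunit 6B was 1.57% ± 0.359 in A2780, 0.236% ± 0.0479 in OlaR, 0.459% ± 0.0884 in shCON and 0.606% ± 0.219 in shCEBPB, so that COX6B1 made up nearly all of subunit 6B in each group. COX6B1 itself rose in OlaR (0.82, adjusted p = 8.99e-14). It was at 113 to 129 FPKM in A2780 and 200 to 232 in OlaR, which do not overlap.

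In the F1 part of the ATP synthase, the catalytic and rotor subunits differed in size and direction. ATP5B had 449 to 482 FPKM in shCON libraries (median 465) against 742 to 812 after knockdown (median 761; change 0.72, SE 0.03, adjusted p = 2.39e-13), and it fell in OlaR (-0.36, adjusted p = 1.27e-10). Its partner ATP5A1 was at 142 to 157 FPKM in A2780 (median 150) and 260 to 283 in OlaR (median 265; change 0.83, SE 0.03, adjusted p = 1.91e-16), with a change of -0.07 after knockdown (adjusted p = 0.0435) that was lost in 5 of 10 alternatives and turned in 1. ATP5C1, the gamma subunit of the rotor, had 69.7 to 75.8 FPKM in shCON libraries (median 72.2) against 102 to 124 after knockdown (median 109; change 0.61, SE 0.04, adjusted p = 3.57e-10), and at 142 to 164 in A2780 (median 149) and 67.3 to 76.9 in OlaR (median 73.9; change -1.04, SE 0.04, adjusted p = 2.08e-15). ATP5C1 over ATP5B was 0.155 ± 0.00457 in shCON, 0.145 ± 0.00784 in shCEBPB, 0.27 ± 0.0204 in A2780 and 0.167 ± 0.0124 in OlaR. A2780 thus had the highest ratio, with no overlap with OlaR (0.246 to 0.306 against 0.152 to 0.186, exact permutation p = 0.000155, adjusted p = 0.000248), and the smaller difference after knockdown gave an exact permutation p of 0.00901 (adjusted p = 0.0135).

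Subunit c forms the ring that turns in the membrane, and 3 genes encode the same mature protein. ATP5G1 (plus strand of chr17:48892765-48895871, hg38) was at 60.1 to 74.5 FPKM in A2780 (median 68.4) and 268 to 318 in OlaR (median 277), a change of 2.06 (SE 0.05, adjusted p = 6.37e-19). It was at 270 to 307 in shCON and 236 to 276 in shCEBPB, which overlap (change -0.15, adjusted p = 0.00655), and that fall was not called in libraries 4 to 8 alone (-0.08, adjusted p = 0.122). ATP5G2 went the other way. It was at 178 to 209 FPKM in A2780 and 139 to 167 in OlaR (change -0.36, adjusted p = 2.40e-07), and at 134 to 156 in shCON and 191 to 223 in shCEBPB (change 0.52, adjusted p = 1.13e-08). ATP5G3 was at 35.6 to 64.6 FPKM over all libraries and passed in neither comparison (-0.14 and 0.03, adjusted p = 0.232 and 0.655). The sum of the 3 genes was 484 ± 17.8 FPKM in shCON, 514 ± 27.1 in shCEBPB, 315 ± 10.4 in A2780 and 469 to 516 (median 492) in OlaR. It differed between A2780 and OlaR (exact permutation p = 0.000155, adjusted p = 0.000248) and less clearly between shCON and shCEBPB (p = 0.026, adjusted p = 0.0347, exact permutation test). ATP5G1 gave 58.9% ± 1.4 of it in shCON, 49.9% ± 1.74 in shCEBPB, 21.7% ± 1.17 in A2780 and 58.3% ± 2.2 in OlaR (exact permutation p = 0.000155 and adjusted p = 0.000248 in each comparison). RefSeq lists 8 pseudogenes by name for ATP5G1 and 5 for ATP5G2, so their levels may hold reads of copies or miss reads that were split.

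**Figure D3:**
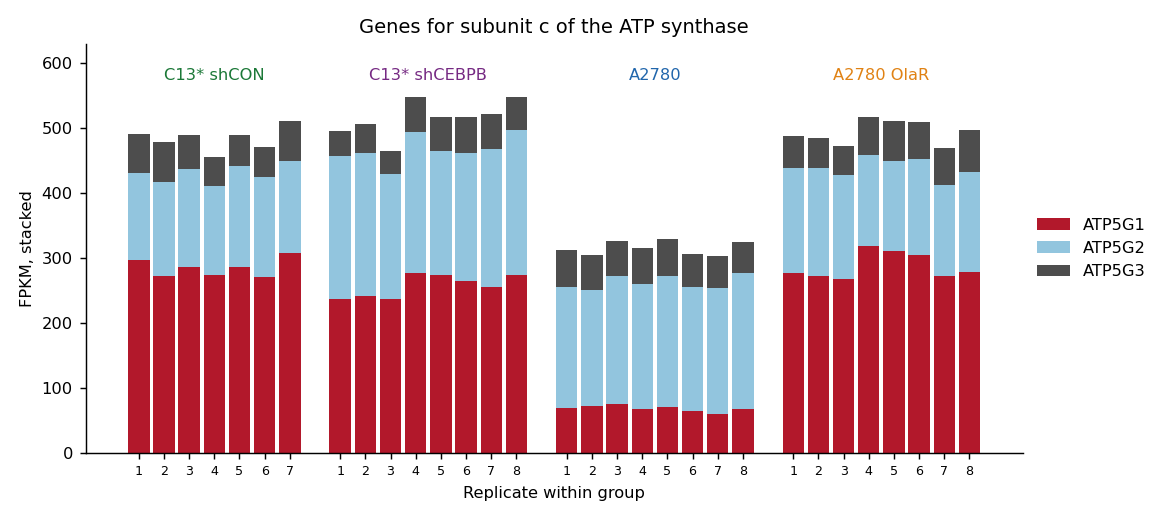
Stacked FPKM of ATP5G1, ATP5G2 and ATP5G3, the genes for subunit c, in each of 31 libraries by group. In A2780 the total is lowest (302 to 329) and ATP5G1 gives 19.9% to 23.7% of it, against 47.7% to 61.6% in the other groups.

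ATP5S carries an ATP synthase name but is not one of its subunits. It had the largest fall of the 80 members after knockdown. Its shCON libraries had 15.9 to 19.6 FPKM (median 18.3) and its shCEBPB libraries 4.96 to 6.03 (median 5.18; change -1.59, SE 0.05, adjusted p = 1.48e-15), and it rose in OlaR, with 5.21 to 6.37 in A2780 (median 5.92) and 18 to 20.7 in OlaR (median 18.9; change 1.54, SE 0.04, adjusted p = 1.83e-17). Its exons share 1908 bases with genes on the other strand, CDKL1 among them. The sources used here do not say if reads were counted by strand, so reads of these genes cannot be told apart.

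Libraries numbered 1 to 3 and 4 to 8 differed within groups, and most in shCEBPB and OlaR. The mean log2(FPKM + 1) of libraries 4 to 8 minus that of 1 to 3 had a median over the members of 0.17 in shCEBPB, 0.11 in OlaR, -0.06 in shCON and 0.00 in A2780, against -0.00 or -0.01 over all genes in each. It passed 1.5-fold in 8 members (10%) in shCEBPB and 5 (6.25%) in OlaR, against 4.52% and 1.11% of all genes, and in no member in the other groups. ATP5J2, subunit f of the ATP synthase, was at 96.4 to 167 FPKM in libraries 1 to 3 of shCEBPB and 240 to 279 in libraries 4 to 8, and at 63.3 to 66.7 and 116 to 139 in OlaR. NDUFA13 was at 138 to 215 and 289 to 326 in shCEBPB, and at 127 to 134 and 209 to 243 in OlaR. COX7B went the other way, at 413 to 478 and 272 to 348 in shCEBPB and at 222 to 226 and 149 to 191 in OlaR. Its rise after knockdown was 1.16 in libraries 1 to 3 and 0.45 in libraries 4 to 8, and its rise in OlaR (0.23, adjusted p = 0.0482) turned to -0.08 in libraries 4 to 8 and was lost in 6 of the other alternatives.

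Across the 80 members, this within-group difference had a Pearson r of 0.91 between shCEBPB and OlaR and of -0.75 between shCEBPB and shCON. Its Spearman correlation with the GC content of the transcript was 0.64 in shCEBPB, 0.64 in OlaR, -0.26 in shCON and -0.59 in A2780 (0.74, 0.80, -0.39 and -0.77 over the 12905 genes with a known GC content). These are correlations across genes, which share libraries and are not independent replicates. The labels give the library number but no date or run. ATP5J2 had the largest rise of the members after knockdown (1.18, SE 0.23, adjusted p = 0.000128), at 55.4 to 113 FPKM in shCON and 96.4 to 279 in shCEBPB, which overlap. NDUFA1 rose there too, from a mean of 43.9 ± 12.6 to 90.1 ± 27.5 FPKM (adjusted p = 0.000511), also with overlap. Both rises lay mostly in libraries 4 to 8. ATP5J2 gave 0.35 in libraries 1 to 3 (adjusted p = 0.135) and 1.71 in libraries 4 to 8 (adjusted p = 4.72e-08), and NDUFA1 gave 0.18 (adjusted p = 0.488) and 1.53 (adjusted p = 2.74e-07). In contrast, SDHD, ATP5S, ATP5B, COX7A2L and ATP5C1 kept their direction and call in each range of numbers in both comparisons, and NDUFA7 did so after knockdown.

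The assembly factors and other mitochondrial genes gave the setting. Of 16 complex I assembly genes 10 rose and 1 fell after knockdown, and 8 rose and 6 fell in OlaR. NUBPL, which delivers iron-sulphur clusters to complex I, was the one that fell (-1.79, adjusted p = 1.03e-16), from 16.2 to 18.4 FPKM in shCON to 3.77 to 4.62 in shCEBPB, and it rose in OlaR (2.27, adjusted p = 1.31e-18). Of 4 complex II assembly genes 1 rose and 2 fell, and 2 rose and 2 fell in OlaR. SDHAF4 fell after knockdown (-1.78, adjusted p = 2.64e-11), and SDHAF2, which adds the flavin to SDHA, rose in OlaR (0.96, adjusted p = 8.02e-14). Of 6 complex III assembly genes 1 rose and 5 fell after knockdown, and 5 rose and none fell in OlaR. TTC19 fell (-1.63, adjusted p = 2.25e-17) and rose (1.14, adjusted p = 1.19e-16), and UQCC1 fell (-1.22, adjusted p = 1.38e-14) and rose (2.45, adjusted p = 1.09e-20).

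Of 24 complex IV assembly genes in the table, 11 of 21 tested rose and 5 fell after knockdown, led by COA7 (0.99), and 9 of 22 rose and 9 fell in OlaR, led by COA4 (1.56). Of 4 ATP synthase assembly genes tested, 2 rose and none fell after knockdown, and 1 rose and 3 fell in OlaR. TMEM70, which helps to build the subunit c ring, rose slightly after knockdown (0.20, adjusted p = 0.000346) and fell in OlaR (-1.30, adjusted p = 2.10e-16). Of the complex I subunits whose symbols the name rule missed, 2 of 3 were tested. NDUFAB1, the acyl carrier protein, was at 47.7 to 57.1 FPKM in shCON and 115 to 149 in shCEBPB (change 1.27, adjusted p = 9.49e-13), and at 136 to 156 in A2780 and 43.8 to 54.1 in OlaR (change -1.57, adjusted p = 1.43e-17). Of the 17 electron carrier and supercomplex genes, 5 rose and 6 fell after knockdown and 6 rose and 7 fell in OlaR. PDSS1, an enzyme of ubiquinone synthesis, led the first (0.82), and COQ8A, of the same pathway, the second (2.32, adjusted p = 1.75e-18).

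Of 17 TCA cycle genes, 12 rose and 5 fell after knockdown and 8 rose and 8 fell in OlaR. OGDH, of the 2-oxoglutarate dehydrogenase complex, rose in both (1.82 and 1.24, adjusted p = 1.29e-13 and 5.26e-15), and IDH2 fell in both (-0.77 and -1.25, adjusted p = 1.57e-09 and 4.69e-15). Of 77 mitochondrial ribosome genes tested, 38 rose and 23 fell after knockdown, with MRPL23 the farthest (-1.54), and 41 rose and 21 fell in OlaR, with MRPS2 the farthest (1.54). Of 24 import genes, 13 rose and 6 fell, led by TIMM22 (1.82), and 7 rose and 12 fell, led by TIMM23B (-1.17). The shares called in these lists, the regulators below included, ranged from 50% to 100%, beside 84.7% and 89.8% of all genes. Their median log2 fold changes ran from -0.47 (complex III assembly) to 0.43 (import) after knockdown and from -0.72 (complex I subunits outside the name rule) to 0.71 (complex III assembly) in OlaR, beside -0.07 and -0.12 over all genes.

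Of the 16 transcription and biogenesis genes tested, 9 rose and 6 fell after knockdown and 7 rose and 6 fell in OlaR. POLRMT, the mitochondrial RNA polymerase, had the largest change after knockdown (0.75, adjusted p = 5.10e-06). NRF1 rose after knockdown (0.42, adjusted p = 2.02e-07) and fell in OlaR (-0.19, adjusted p = 0.00202). TFAM, which packs and transcribes mitochondrial DNA, rose in both (0.36 and 0.62, adjusted p = 1.52e-05 and 3.00e-08). ESRRA, the receptor ERRα, was at 20.1 to 31.8 FPKM in A2780 and 40.1 to 67.8 in OlaR (change 1.01, adjusted p = 3.64e-07), by 0.43 in libraries 1 to 3 and 1.36 in libraries 4 to 8, and it fell after knockdown (-0.40, adjusted p = 0.0286), a call not kept in libraries 4 to 8 (-0.04) or without shCON replicate 1. GABPA fell in both (-0.48 and -0.40, adjusted p = 0.00254 and 0.000303), and neither call held in libraries 1 to 3 (-0.03 and -0.06). The coactivator PPARGC1B fell in both (-0.18 and -0.25, adjusted p = 0.00307 and 1.77e-06). PPARGC1A was at 0.074 to 0.159 FPKM in shCON and 0.906 to 1.44 in shCEBPB, and at 0.112 or less in A2780 and OlaR, and it did not pass the filter.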

How the data were processed

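mRNA was sequenced in 31 libraries of 4 groups (C13* shCON, n = 7; the others, n = 8). The authors deposited FPKM for all libraries in 1 table. Per the paper's methods and the submitters' processing notes, reads were checked with FastQC, mapped to hg38 with TopHat and tested as counts with edgeR. The tool and annotation behind the FPKM and the use of strand are not given in the sources used here. Labels gave each library's group and number. shCON replicate 1 has A2780 in its cell line field and C13* in its title, and was kept as C13* shCON. From 19225 rows, 4 with a repeated symbol were left out. The study gives only a minimum sequence yield per sample, and reads per library and gene were not used here, so no counting error is given. Relative depth, read from the steps of 449 low genes, differed by 1.42 times at most, and 76.9% of 7169 values of low genes came within 0.05 of a whole step, so whole reads were not recovered. The sums of FPKM were 417556 to 454578.

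Because FPKM are not counts, changes were tested with limma 3.58.1 in R 4.3.3 (lmFit, and eBayes with a trend, two-sided, Benjamini-Hochberg adjustment) on log2(FPKM + 1), in place of the edgeR test of the study. Each comparison used its own groups. A gene was tested if it reached 1 FPKM in a number of libraries equal to the size of the smaller group, and it was called at an adjusted p under 0.05. Fold changes on this scale understate the change of low genes. Exact permutation tests (two-sided, all 6435 or 12870 regroupings) can reach 0.000155 at the lowest. On simulated data the limma step found 192 of 200 changed genes (96%) among the 12006 of the knockdown comparison and 199 (99.5%) among the 12458 of the other. The simulation had independent noise, only these 200 changed genes and no split by library number, unlike the data. It therefore does not show how reliable the calls made here are.

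Symbols were matched to GENCODE 44 on hg38 for 19031 genes (99%) and all 87 members. Python 3.11.15, numpy 2.4.6, pandas 2.3.3, scipy 1.17.1 and matplotlib 3.10.9 were used. The members, the lists and the tests were chosen with earlier results of these data known. Named genes were core subunits and isoform pairs fixed by name, in each comparison the 5 largest rises and 5 largest falls among called members whose libraries do not overlap, 6 regulators, and the called gene with the largest change in each other mitochondrial list. ATP5J2, NDUFA13, NDUFB9, COX7C and, after knockdown, NDUFA1 were named after their values were seen, as were members listed as standing apart. NDUFA8 and NDUFB4 were named for the motif in their promoters. The other lists were assembly factors of complexes I to IV and of the ATP synthase, complex I subunits outside the name rule, electron carriers and supercomplex genes, transcription and biogenesis, the TCA cycle, and the mitochondrial ribosome and import. Alternatives were a pseudocount of 0.1, no filter, a common sum, quantile normalization, a 4-group fit, a replicate block, libraries 1 to 3 or 4 to 8, a correction for length and GC content, and a fold of at least 1.5. Leaving out shCON replicate 1 was chosen after seeing the data. A member of the list is not reported here by name and is left out of the plots, but stays in the counts and medians. The comparison of library numbers within groups was also chosen after seeing the data.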

Additional observations from a re-analysis of the deposited data

Results flagged for a closer look

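Among the 45 named members, 158 sets of a member in a group were examined for a library far from the others of its group (a gap to the nearest library that is large for the range of the group), and 12 were found. Chance gives about 1 in 20. A2780 replicate 8 was the library in 5 of them. It was lowest for COX5B, at 222 FPKM (the others 252 to 278), and for COX8A, at 266 (the others 294 to 307). It was highest for COX7A2, at 206 (the others 172 to 182), for NDUFA4, at 88.6 (the others 74.8 to 79.7), and for UQCRC2, at 123 (the others 101 to 106). A2780 replicate 7 was lowest for NDUFA7, at 81.4 (the others 92.5 to 100).

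In OlaR, replicate 7 was highest for ATP5A1, at 283 FPKM (the others 260 to 268), and replicate 8 for COX7A2, at 151 (the others 137 to 142). In shCEBPB, replicate 8 was highest for ATP5B, at 812 (the others 742 to 771), and replicate 3 was lowest for UQCRHL, at 25.5 (the others 34.2 to 39.6). In shCON, replicate 2 was highest for NDUFB7, at 168 (the others 107 to 132), and replicate 7 for UQCRC1, at 190 (the others 166 to 176).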

How the results depend on the processing

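The count of members called stayed within 1.5 times under every alternative but a fold of at least 1.5, which left 19 after knockdown (12 higher and 7 lower) and 27 in OlaR (15 higher and 12 lower). The median of the members after knockdown, 0.12, was 0.04 under quantile normalization, -0.06 in libraries 1 to 3 and 0.27 in libraries 4 to 8. In OlaR the median of -0.08 was -0.15 with a common sum, -0.14 in libraries 1 to 3 and 0.02 with the length and GC correction, which moved the median of all genes from -0.12 to -0.00. Single genes turned as follows after knockdown: under quantile normalization SDHC (-0.07), UQCRFS1 (-0.02) and PPARGC1B (0.08); in libraries 1 to 3 NDUFS1 (0.06), CYC1 (-0.12) and COX4I1 (-0.21); in libraries 4 to 8 NDUFV1 (0.18), SDHC (-0.02) and ATP5G3 (0.13); and with the length and GC correction NDUFS1 (0.32), ATP5A1 (0.05), ATP5G3 (0.07) and PPARGC1B (0.05). In OlaR they were COX5B (-0.06) and ATP5G3 (-0.03) with a common sum, COX4I1 (-0.07) and COX5B (-0.09) under quantile normalization, NDUFS1 (0.04), UQCRC2 (0.08), COX4I1 (-0.05), COX5B (-0.26) and ATP5G3 (-0.23) in libraries 1 to 3, COX7B (-0.08) in libraries 4 to 8, and NDUFS1 (0.22) and UQCRC2 (0.08) with the length and GC correction. The cause was not tested. Of 540 values of 54 named genes under the alternatives after knockdown, 498 kept direction and call, 17 lost the call, 12 gained it and 13 turned. Of 441 values of 49 genes in OlaR, the numbers were 407, 17, 5 and 12.

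Replicate numbers are shared between groups, but libraries of the same replicate number did not deviate together on average (mean r -0.148 and -0.233, from -0.512 to 0.462 and from -0.589 to 0.125). The numbers were therefore not taken as pairs, although libraries 1 to 3 and 4 to 8 differed within groups. In shCON, replicates 6 and 7 are libraries 7 and 8, so they were matched to shCEBPB libraries 6 and 7. For these, pairing by library number was not tested. The replicate block used the same replicate numbers. With the replicate block, 33 members were higher and 23 lower after knockdown (56 called), and 25 were higher and 36 lower in OlaR (61 called), with medians of 0.11 and -0.08. No control library correlated best with the library of its own replicate number. Without shCON replicate 1, 58 members were called (36 higher and 22 lower). The number of reads behind each FPKM is unknown, so no limit from depth could be given.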

Other observations

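The genes around a member were set beside it, as the median log2 fold change of all other tested genes lying at least partly within 1 Mb of it. Around ATP5S on chromosome 14 all 20 neighbours were lower in shCEBPB than in shCON (median -1.66, ATP5S -1.59), and all 20 were higher in OlaR than in A2780 (median 1.04, ATP5S 1.54). Around NDUFS3 on chromosome 11 all 23 were higher after knockdown (median 0.74, NDUFS3 0.90), and around NDUFB10 on chromosome 16 the number was 53 of 58 (median 0.67, NDUFB10 0.73). Around NDUFB9 on chromosome 8 all 11 were higher in OlaR (median 1.09, NDUFB9 0.79). Neighbours were counted by sign alone. Of all genes tested on chromosome 14, 62.8% were called lower after knockdown (median -0.44) and 42% higher in OlaR (median -0.05). After knockdown 41% were called higher on chromosome 11 and 45% on chromosome 16, and in OlaR 43.4% on chromosome 8. These members were named here after their neighbours' values were seen, and no test was made.

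Other members differed from the genes beside them. In OlaR, ATP5G1 on chromosome 17 was at 2.06 while its 29 neighbours had a median of -0.59, and NDUFB7 on chromosome 19 was at 1.21 while its 30 neighbours had a median of -0.49. After knockdown, NDUFA7 on chromosome 19 was at -1.28 with 31 neighbours at 0.04, and SDHD on chromosome 11 was at -1.04 with 14 neighbours at -0.15. The 3 members on the X chromosome (NDUFA1, NDUFB11 and COX7B) were all called higher after knockdown, where the 362 X-linked genes tested had a median of 0.32 and 61.6% of them were called higher. In OlaR 2 of the 3 were called lower and 1 higher, and the median of 391 X-linked genes was -0.35.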
